A study of Mus musculus with 9 samples.

Results

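RNA of the whole pancreas of mouse embryos at stage e18.5 was compared between 3 libraries labelled Pdx1:Cre;Grg3 and 3 control libraries labelled Pdx1:Cre. The groups were taken from the sample titles, and these 6 libraries were part of 9 in all. Every embryo, control or mutant, carried Pdx1:Cre, a Cre recombinase expressed from the promoter of the pancreatic factor Pdx1, on a mixed C57BL6 background. The labelled mutants carried in addition a Grg3 allele whose kind (deleted exons, floxed or null) the labels do not state. The other 3 libraries, labelled Pdx1:Cre;Grg3Grg4, were not compared here. They shared the choice of genes tested, the scaling and the fit, and so added to the estimate of the spread between embryos. Because the whole organ was taken, vessels, mesenchyme, nerves and blood, in which the Pdx1 promoter is not active, added their RNA to every library. The same promoter is known to be active in the antrum of the stomach and in the duodenum. In such bulk samples, fewer cells of a type and less RNA per cell cannot be told apart.

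Grg3, encoded by Tle3, belongs to the Groucho family of co-repressors. These proteins do not bind DNA themselves. Hes, Runx, Nkx and forkhead factors bring them to their target genes, where they help to keep transcription low. In the late fetal pancreas most RNA comes from acinar cells, which fill granules with digestive enzymes under the control of Ptf1a and its partners, while endocrine cells arise from progenitors that express Neurog3. Groucho proteins are partners of several factors of the endocrine lineage, among them Nkx2-2.

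The gene counts of the 6 libraries summed to 50120504 to 62744499. By Xist and the Y-linked genes each of the groups compared held 1 male and 2 female embryos, and the Grg3Grg4 group held 3 males. Levels are given as CPM (counts scaled to a total of 1000000 gene counts after TMM scaling), always in the order of replicates 1, 2 and 3, and changes as log2 fold changes with their SE. Of 19166 genes tested, 268 (1.4%) were called at an edgeR adjusted p under 0.05, 135 higher (0.704%) and 133 lower (0.694%) in the libraries labelled Grg3 mutant. The median log2 change of all genes tested was 0.02. Beside the median of a gene list, the values without a named library are the lowest or highest with 1 library left out, given where they differ from it by more than 1.5 times. In 24.6% of all genes tested the 3 libraries of one group lay entirely above those of the other (12.6% higher and 12% lower). Along the first principal component of these 6 libraries alone (38.7% of the variance) the controls ran from -44.1 to -29.6 and the others from 29.3 to 56.7. The libraries labelled Grg3 mutant varied more among themselves: on the second component, with 19.1% of the variance, replicate 1 stood at 38.1 and replicate 2 at -54.3. The number of calls rested on single libraries: it fell to 32 and 44 when control replicate 3 or 2 was left out, to 75 when Grg3 replicate 1 was, and to 147 when Grg3Grg4 replicate 1 was. Of 74 called genes chosen by the rule for named genes, 9 stayed called in all 20 alternative analyses, namely Tle3, Foxa1, Nkx6-3, Gast, Hcar1, Serpina1c, Gm8730, Rps26-ps1 and Rpl34-ps1, and none changed direction.

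The transcript of the targeted gene was higher, not lower, in the libraries labelled Grg3 mutant. Tle3 (chromosome 9, 61372366 to 61418497, GRCm38) stood at 63.1, 67.7 and 63.7 CPM in the controls and 148, 167 and 145 CPM in the libraries labelled Grg3 mutant. The groups did not overlap, and the change was 1.24 (SE 0.09, edgeR adjusted p = 0.00027). The counts cover the whole gene, so they do not show which exons were transcribed. For this reason the groups are called libraries labelled Grg3 mutant, and every direction below is between labels. Among the other Groucho genes no member was called. Tle1 stood at 48.4, 51.3 and 45.4 CPM in the controls and 57.5, 58.2 and 54.7 CPM in the libraries labelled Grg3 mutant, without overlap, and its change of 0.23 did not pass (edgeR adjusted p = 0.125). Tle4 had a change of 0.65 (edgeR adjusted p = 0.132), also without overlap. Tle2, Tle6 and Aes, a short family member that lacks the repressor domains, had changes of 0.04, 0.07 and -0.04 with overlapping groups. Of 25 tested genes for proteins known to recruit Groucho, 0 were called, with a median of 0.16 (0.08 without Grg3 replicate 2 and 0.33 without control replicate 1) beside 0.02 for all genes.

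The clearest rises were in Foxa1 and in genes of the stomach antrum and gut, which were almost silent in the control pancreas. The forkhead factor Foxa1 (chromosome 12, 57540628 to 57546916), a factor that opens chromatin in gut endoderm, had 2, 1 and 1 counts in the controls and 786, 765 and 664 counts in the libraries labelled Grg3 mutant. This is a ratio of 442 (exact 95% interval 172 to 1622), with edgeR adjusted p = 1.73e-07. Its relative Foxa2 stood at 43.1, 44.5 and 37.5 CPM in the controls and 38.4, 32.1 and 35.5 CPM in the libraries labelled Grg3 mutant, with overlap. Foxa2 and Foxa3 had log2 differences of -0.24 and -0.19, and neither passed (edgeR adjusted p = 0.328 and 0.631). Nkx6-3 (chromosome 8, 23153269 to 23158948), a homeobox factor of the antrum, stood at 0.355, 0.293 and 0.198 CPM in the controls and 15.7, 8.21 and 13.1 CPM in the libraries labelled Grg3 mutant, a rise of 5.43 (SE 0.37, edgeR adjusted p = 0.000175). Gast (chromosome 11, 100334407 to 100336996) encodes gastrin, the hormone of antral G cells, which the fetal pancreas is also known to make. It stood at 0.939, 0.712 and 1.12 CPM in the controls and 20.7, 19.9 and 17.5 CPM in the libraries labelled Grg3 mutant, a rise of 4.39 (SE 0.21, edgeR adjusted p = 1.03e-05). In all 3 genes the mutant-labelled libraries stayed within a 2-fold range, and every control lay more than 10-fold below the lowest of them. Foxa1 and Nkx6-3 were the 2 called of 27 progenitor and homeodomain genes tested. The median of that list was -0.06 (-0.08 without Grg3 replicate 2 and 0.02 without control replicate 2).

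The promoters of Foxa1 and Gast are shown because these genes went from near silence to a steady level. They are the RefSeq sequences on GRCm38.p6, from 250 bases before to 50 bases after the gene's start (chr12:57546062-57546361, minus strand, and chr11:100334157-100334456, plus strand). The start that RefSeq gives Foxa1 lies inside the gene span of the annotation given above, downstream of its start there. Capitals mark matches, on either strand, to the forkhead letters TGTTTAC or TATTTAC and to the E-box letters CACCTG, which the acinar factor Ptf1a and many other factors can bind.
Foxa1: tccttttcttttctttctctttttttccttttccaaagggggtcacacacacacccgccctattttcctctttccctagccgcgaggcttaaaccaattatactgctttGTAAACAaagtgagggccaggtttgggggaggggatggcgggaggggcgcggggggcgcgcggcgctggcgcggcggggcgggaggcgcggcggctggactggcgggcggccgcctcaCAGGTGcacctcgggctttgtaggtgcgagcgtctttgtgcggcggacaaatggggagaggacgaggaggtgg
Gast: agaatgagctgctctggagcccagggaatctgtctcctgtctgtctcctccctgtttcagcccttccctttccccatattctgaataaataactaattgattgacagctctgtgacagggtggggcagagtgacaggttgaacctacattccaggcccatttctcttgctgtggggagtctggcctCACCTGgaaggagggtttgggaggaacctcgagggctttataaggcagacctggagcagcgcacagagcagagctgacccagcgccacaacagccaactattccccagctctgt
The Foxa1 window holds 1 forkhead and 1 E-box match, both on the strand opposite to the gene. The Gast window holds 1 E-box match and 0 forkhead matches. Of 12935 promoters found for the genes tested, 4.38% hold a forkhead match and 18.8% an E-box match.

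Some other genes of the gut rose as well. Of 23 intestine genes tested 3 were called higher, namely Clca1, Lgals4 and Apob, the last also a liver gene. The median of 1.24 was 0.08 without Grg3 replicate 1. Of the 23 genes, 14 lay above 0 and 9 below, with 6 higher and 3 lower without overlap. The summed CPM of the list was 2534, 3088 and 2699 in the controls. It was 1793, 1171 and 1956 in the libraries labelled Grg3 mutant. Clca1, a secreted protein of goblet cells, had 1, 0 and 0 counts in the controls and 45, 63 and 62 in the libraries labelled Grg3 mutant (edgeR adjusted p = 0.00693). Slc26a3, a chloride and bicarbonate exchanger of gut and duct epithelium, had 2, 3 and 3 against 73, 91 and 61 counts, a ratio of 22.4 (exact 95% interval 11.2 to 52.6) with edgeR adjusted p = 0.000467. Lgals4, a galectin of the gut lining, stood at 2.21, 2.45 and 2.46 CPM in the controls and 7.77, 4.3 and 6.65 CPM in the libraries labelled Grg3 mutant, a rise of 1.39 (SE 0.25, edgeR adjusted p = 0.0324). In Clca1, Slc26a3 and Lgals4 the groups did not overlap. The call of Clca1 was lost without control replicate 2 or 3 (edgeR adjusted p = 0.05 and 0.0592), and that of Lgals4 without control replicate 2, control replicate 3 or Grg3 replicate 1 (edgeR adjusted p = 0.141, 0.151 and 0.0986).

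Other stomach genes were less even between libraries. Of 16 tested, 13 lay above 0, 4 lay higher without overlap, and Gast and Nkx6-3 were the 2 called. The median was 1.27, and 0.63 without Grg3 replicate 3. The secretory products of the gastric glands were high mainly in 1 library: the pepsinogen Pga5 stood at 5.91, 10.1 and 9.82 CPM in the controls and 7.33, 2.88 and 105 CPM in the libraries labelled Grg3 mutant, and Pgc at 0.104, 0.0419 and 0 CPM in the controls and 0.0731, 0.261 and 5.74 CPM in the libraries labelled Grg3 mutant. Cathepsin E, from Ctse, stood at 2.11, 1.42 and 1.78 CPM in the controls and 2.45, 1.76 and 13.1 CPM in the libraries labelled Grg3 mutant. The groups overlapped in all 3 genes and none was called (edgeR adjusted p = 0.282, 0.124 and 0.196). The mucous peptide Tff2 had a change of -0.84 (edgeR adjusted p = 0.0769). Of the 5 stomach markers used to check the tissue (Gkn1, Gkn2, Muc5ac, Tff1 and Gast), Gkn1 and Gkn2 had 0 counts in all controls and Gast alone was abundant enough to be tested. Gkn1 had 0, 4 and 179 counts and Gkn2 0, 4 and 314 counts in the libraries labelled Grg3 mutant. The 5 markers summed to at most 1.14 CPM in the controls, and their sum was highest in Grg3 replicate 3, at 28.4 CPM, of which Gast was the larger part. The intestinal markers summed to 33.2, 34.5 and 41.8 CPM in the controls and 29.6, 15.8 and 33.8 CPM in the libraries labelled Grg3 mutant, most of it from Vil1, which pancreas also expresses. The enterocyte markers were highest in Grg3 replicate 1: Fabp2 stood at 0.167, 0.0209 and 0 CPM in the controls and 3.34, 0.0686 and 0.588 CPM in the libraries labelled Grg3 mutant, and Lct at 0.167, 0.147 and 0.264 CPM in the controls and 2.45, 0.11 and 0.304 CPM in the libraries labelled Grg3 mutant. Whether cells of the stomach or gut contributed to these rises was not tested.

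**Figure D1:**
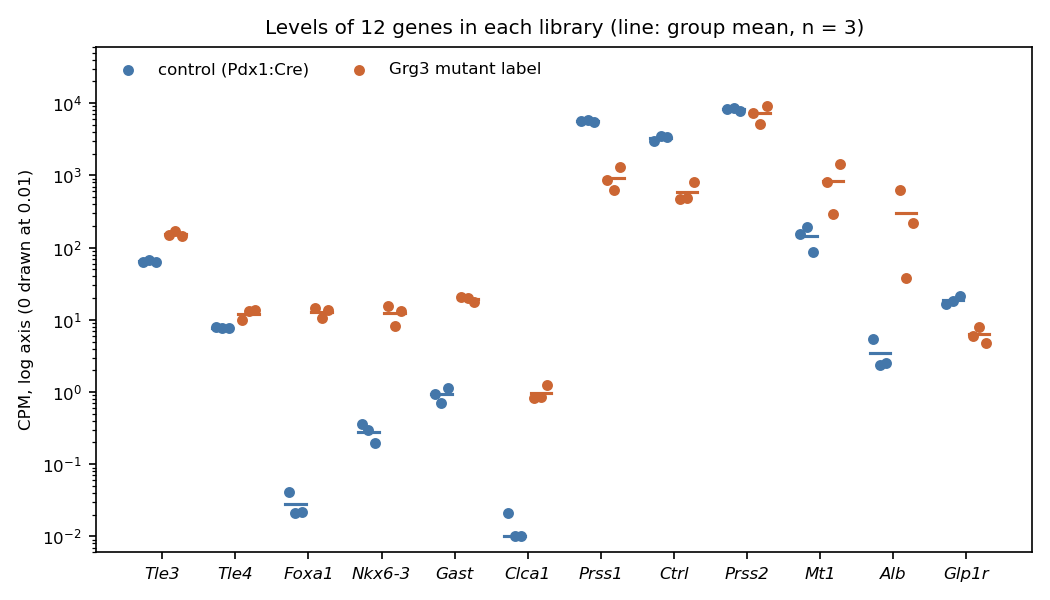
CPM on a log axis for 12 genes, with 1 point per library (blue, control; orange, labelled Grg3 mutant) and a line at each group mean of 3 libraries, counts of 0 being drawn at 0.01 CPM. Foxa1, Nkx6-3 and Gast separate by more than 10-fold with little spread, Prss1 and Ctrl are lower while Prss2 overlaps, and Mt1 and Alb are higher with a wide spread.

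A subset of digestive enzymes was lower. Of 34 acinar enzyme genes tested, 10 were called lower and 0 higher, and in 17 the groups did not overlap, all of them lower. The median of the list was -0.51 beside 0.02 for all genes, and it was -0.28 without Grg3 replicate 2 and -0.81 without Grg3 replicate 3. The trypsinogen Prss1 (chromosome 6, 41458932 to 41463786) stood at 5621, 5784 and 5443 CPM in the controls and 866, 618 and 1311 CPM in the libraries labelled Grg3 mutant, a fall of 2.59 (SE 0.27, edgeR adjusted p = 0.0027). The chymotrypsin-like protease Ctrl (chromosome 8, 105932003 to 105933862) stood at 2967, 3493 and 3441 CPM in the controls and 474, 485 and 809.7 CPM in the libraries labelled Grg3 mutant, a fall of 2.49 (SE 0.21, edgeR adjusted p = 0.000813). For Prss1 the controls lay close together, and every mutant-labelled library lay more than 4-fold below the lowest of them. The trypsinogen genes Gm5771, Gm10334, Prss3 and Try4 fell by 2.74, 2.56, 2.26 and 1.38 (edgeR adjusted p = 0.00103, 0.007, 0.00639 and 0.0124). These trypsinogens are near-identical neighbours on chromosome 6 between which the counting could split reads, so their single values are uncertain.

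The other 4 called enzymes belong to other families and had smaller falls. The lipase-related Pnliprp2 stood at 2368, 2752 and 2244 CPM in the controls and 1030.2, 839.8 and 1302 CPM in the libraries labelled Grg3 mutant, a fall of 1.22 (SE 0.17, edgeR adjusted p = 0.0111). Rnase1, the pancreatic ribonuclease, stood at 6598, 7586 and 6815 CPM in the controls and 3223, 2420.0 and 4449.9 CPM in the libraries labelled Grg3 mutant, a fall of 1.06 (SE 0.21, edgeR adjusted p = 0.0431). The kallikrein Klk1 and the phospholipase Pla2g1b fell by 1.14 and 1.11 (edgeR adjusted p = 0.0482 and 0.0324). Of the 10 calls, 5 were kept without control replicate 2, 5 without control replicate 3 and 5 without Grg3 replicate 1, and 0 with the 4 female libraries compared alone. The proteases Prss1, Ctrl, Gm5771, Gm10334 and Prss3 kept their calls with any single library left out, Prss1 for example in the same 3 analyses (edgeR adjusted p = 0.0146, 0.0145 and 0.0275).

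Several abundant enzymes overlapped between the groups. Ctrb1, the main chymotrypsinogen, stood at 115805, 128436 and 123887 CPM in the controls and 104742, 76424 and 135335 CPM in the libraries labelled Grg3 mutant (log2 change -0.22, edgeR adjusted p = 0.699). The trypsinogen Prss2 stood at 8356, 8587 and 7873 CPM in the controls and 7375, 5097 and 9228 CPM in the libraries labelled Grg3 mutant (log2 change -0.19, edgeR adjusted p = 0.679). In both, Grg3 replicate 3 lay above every control. The elastase Cela2a, the colipase Clps and the carboxypeptidase Cpa1 had changes of -0.40, -0.27 and -0.57, and none passed (edgeR adjusted p = 0.39, 0.572 and 0.25). The ratio of Prss1 to Prss2 CPM within a library, examined after these values were seen, was 0.673, 0.674 and 0.691 in the controls and 0.117, 0.121 and 0.142 in the libraries labelled Grg3 mutant. The ratio of Ctrl to Ctrb1 was 0.0256, 0.0272 and 0.0278 against 0.00452, 0.00635 and 0.00598. Neither ratio overlapped between the groups, although the levels of Prss2 and Ctrb1 did. The CPM of the 34 genes summed to 406659.7, 470482 and 433037 in the controls and 318095, 216804 and 415178 in the libraries labelled Grg3 mutant. Grg3 replicate 2, with the lowest sum, was also the library with the most smooth muscle RNA, and the part of this in the enzyme results was not tested.

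**Figure D2:**
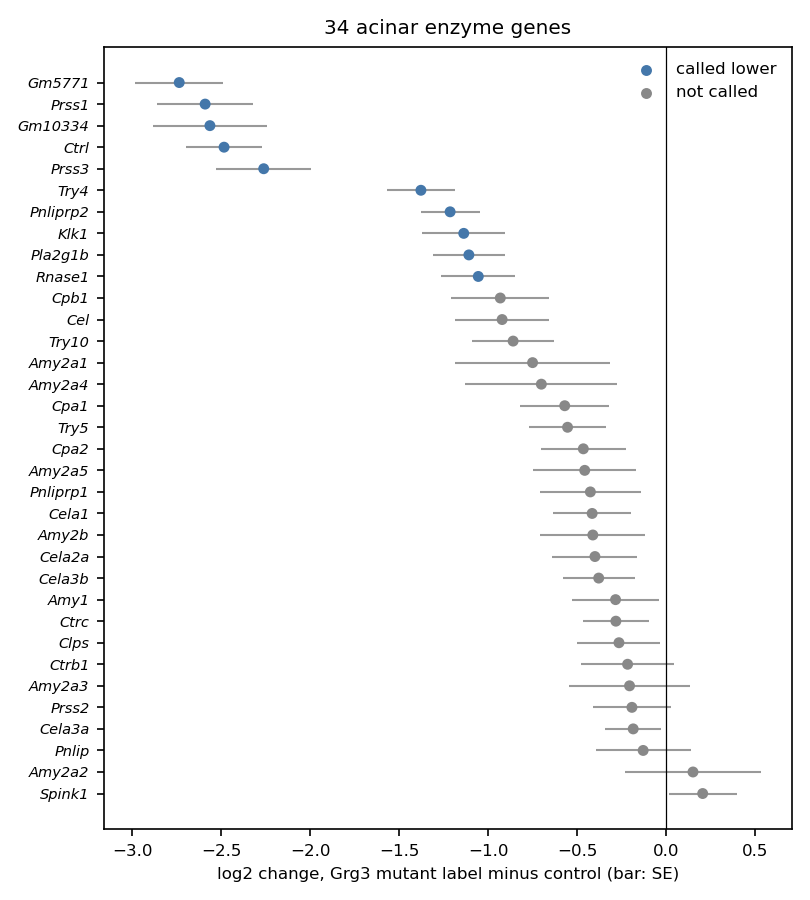
Log2 change (labelled Grg3 mutant minus control, horizontal axis) of 34 acinar enzyme genes, each point with its SE as a bar, blue where called lower. The 10 called genes run from -2.74 to -1.06, with 5 proteases apart from the rest at -2.26 or below, and Prss2 and Ctrb1 lie close to 0.

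The promoters of Prss1, Prss2 and Ctrl are set side by side because Prss1 and Ctrl fell and Prss2 overlapped. They are RefSeq windows as above (chr6:41458680-41458979, plus strand, chr6:41521526-41521825, plus strand, and chr8:105933813-105934112, minus strand). Capitals mark CACCTG (E-box) and TTTCCCA (TC-box), the boxes bound by the Ptf1a complex, on either strand.
Prss1: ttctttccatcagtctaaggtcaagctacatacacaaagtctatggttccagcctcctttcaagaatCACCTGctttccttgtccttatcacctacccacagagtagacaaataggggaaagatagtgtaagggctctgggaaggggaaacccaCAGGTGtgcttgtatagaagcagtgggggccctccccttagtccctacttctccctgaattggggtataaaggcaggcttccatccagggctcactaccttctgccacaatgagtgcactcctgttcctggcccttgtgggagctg
Prss2: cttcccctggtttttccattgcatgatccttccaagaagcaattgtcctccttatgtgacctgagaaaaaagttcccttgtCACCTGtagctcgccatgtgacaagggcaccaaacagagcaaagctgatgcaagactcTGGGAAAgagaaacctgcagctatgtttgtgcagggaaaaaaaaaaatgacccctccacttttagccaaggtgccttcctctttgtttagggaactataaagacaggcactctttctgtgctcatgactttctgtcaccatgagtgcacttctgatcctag
Ctrl: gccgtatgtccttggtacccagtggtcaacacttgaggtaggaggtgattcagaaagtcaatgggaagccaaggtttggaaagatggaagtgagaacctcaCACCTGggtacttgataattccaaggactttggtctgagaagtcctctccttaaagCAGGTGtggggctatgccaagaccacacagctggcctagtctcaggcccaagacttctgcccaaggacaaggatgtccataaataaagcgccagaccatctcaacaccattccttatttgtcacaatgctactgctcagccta
The Prss1 and Ctrl windows each hold 2 E-box matches in opposite orientations and 0 TC-box matches, while the Prss2 window holds 1 E-box and 1 TC-box match. Only exact matches were marked. The letters tgggaag, 1 letter away from a TC-box match on the opposite strand, are in both the Prss1 and the Ctrl window. Whether any of these letters relate to the changes was not tested. A TC-box match is found in 7.7% of the promoters of all genes tested.

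The secretory apparatus of acinar cells changed in a few members. Of 24 genes for granule and secretion proteins, 3 were lower and 1 higher, with a median of -0.37 (-0.65 without Grg3 replicate 3 and -0.19 without Grg3 replicate 2). Tmed11, a cargo receptor of the early secretory pathway, stood at 65.1, 67.3 and 75.3 CPM in the controls and 14.9, 13.9 and 28.1 CPM in the libraries labelled Grg3 mutant, a fall of 1.87 (SE 0.26, edgeR adjusted p = 0.0121). The pancreatic serine protease inhibitor Serpini2 and the acinar aquaporin Aqp12 fell by 1.20 and 1.02 (edgeR adjusted p = 0.0256 and 0.0325). A different water channel, Aqp8, moved the other way, with 65.7, 88.5 and 66.9 CPM in the controls and 216, 115 and 259.7 CPM in the libraries labelled Grg3 mutant, a rise of 1.42 (SE 0.25, edgeR adjusted p = 0.0311). In all 4 genes the groups did not overlap, and 0 of the 4 calls were kept without control replicate 2, control replicate 3 or Grg3 replicate 1. The receptors for the secretagogues, Cckar and Chrm3, had changes of -0.41 and -0.52 that did not pass (edgeR adjusted p = 0.385 and 0.229).

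Of 12 transcription factors of acinar cells, 0 were called, and the median was -0.28 (-0.05 without Grg3 replicate 2). Ptf1a stood at 37.4, 39.4 and 36.1 CPM in the controls and 50.6, 32.3 and 64.7 CPM in the libraries labelled Grg3 mutant, and Rbpjl, its partner in the mature acinar complex, at 641, 507 and 477 CPM in the controls and 566, 373 and 692 CPM in the libraries labelled Grg3 mutant. In both genes the groups overlapped. Nr5a2 and Bhlha15 (Mist1) had changes of -0.32 and -0.32 (edgeR adjusted p = 0.316 and 0.466). In the Reg family, secreted proteins that rise in pancreatic injury, Reg3d stood at 38.1, 38.9 and 35.9 CPM in the controls and 14, 7.08 and 14.2 CPM in the libraries labelled Grg3 mutant, a fall of 1.68 (SE 0.22, edgeR adjusted p = 0.00914), and the abundant Reg1 had a log2 difference of -1.11 without passing (edgeR adjusted p = 0.117). The injury-induced Reg3b stood at 7.87, 3.83 and 2.07 CPM in the controls and 19.6, 1.8 and 3.49 CPM in the libraries labelled Grg3 mutant, with overlap. Outside the lists, 2 further abundant transcripts fell: the long noncoding RNA 1810028F09Rik, at 391, 506 and 520.3 CPM in the controls and 102, 109.9 and 198 CPM in the libraries labelled Grg3 mutant with a fall of 1.79 (SE 0.24, edgeR adjusted p = 0.00914), and Selenop, which carries selenium. Selenop stood at 1132, 1135 and 1082 CPM in the controls and 565, 356 and 588 CPM in the libraries labelled Grg3 mutant, a fall of 1.15 (SE 0.20, edgeR adjusted p = 0.0311). Without control replicate 2 or 3 the calls of Reg3d (edgeR adjusted p = 0.05 and 0.0541), 1810028F09Rik (edgeR adjusted p = 0.05 and 0.0592) and Selenop (edgeR adjusted p = 0.136 and 0.132) were lost.

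Among endocrine genes, receptors and enzymes of the mature beta cell were lower while the islet hormones were not called. Of 25 beta cell genes tested, 3 were called lower and 0 higher, and 13 lay lower without overlap against 2 higher. The median was -0.42, and -0.23 without Grg3 replicate 3. Glp1r, the receptor for GLP-1, stood at 16.8, 18.1 and 21.5 CPM in the controls and 6.05, 8.03 and 4.84 CPM in the libraries labelled Grg3 mutant, a fall of 1.57 (SE 0.26, edgeR adjusted p = 0.0252). G6pc2, the islet glucose-6-phosphatase, stood at 29.4, 22.5 and 35.2 CPM in the controls and 10.6, 13.3 and 7.32 CPM in the libraries labelled Grg3 mutant, a fall of 1.48 (SE 0.29, edgeR adjusted p = 0.0422). The prolactin receptor Prlr stood at 4.86, 4.65 and 6.14 CPM in the controls and 2.38, 1.85 and 1.42 CPM in the libraries labelled Grg3 mutant, a fall of 1.47 (SE 0.30, edgeR adjusted p = 0.049). In none of these did the groups overlap, and 0 of the 3 calls were kept without control replicate 2, control replicate 3, Grg3 replicate 1 or Grg3 replicate 3. Ins2 stood at 2489, 2873 and 2699 CPM in the controls and 2354, 1757 and 1299 CPM in the libraries labelled Grg3 mutant, without overlap, and its change of -0.58 did not pass (edgeR adjusted p = 0.32). Gcg, the glucagon gene, also lay lower without overlap, and its change of -0.52 did not pass (edgeR adjusted p = 0.327). The zinc transporter Slc30a8 had a log2 difference of -0.65 (edgeR adjusted p = 0.214). Nkx6-1, a factor that beta cells require, lay higher without overlap at 61.1, 57.3 and 51.1 CPM in the controls and 76.8, 89.2 and 74.9 CPM in the libraries labelled Grg3 mutant and did not pass (edgeR adjusted p = 0.0904).

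A calcium channel gene fell further than the called beta cell genes. Cacna1i, a pore subunit of T-type calcium channels, stood at 17.6, 15.5 and 29.4 CPM in the controls and 4.81, 3.34 and 4.24 CPM in the libraries labelled Grg3 mutant, a fall of 2.34 (SE 0.24, edgeR adjusted p = 0.0027). This call was kept with each single library left out and was lost only with the female libraries alone (edgeR adjusted p = 0.0546). The sodium channel Scn9a fell by 1.46 (SE 0.28, edgeR adjusted p = 0.04), a call lost without control replicate 2 or 3 (edgeR adjusted p = 0.161 and 0.135). They were the 2 called of 22 genes for channels and secretion coupling, whose median was -0.06 (-0.15 without control replicate 1 and 0.01 without control replicate 3). Of 26 general secretory genes of endocrine cells 0 were called, with a median of -0.25 (-0.37 without Grg3 replicate 2 and -0.11 without Grg3 replicate 3). Chromogranin A, from Chga, stood at 401, 525 and 457 CPM in the controls and 228, 257 and 148 CPM in the libraries labelled Grg3 mutant, without overlap (edgeR adjusted p = 0.129).

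The other endocrine groups had 1 call. Of 14 delta, PP and epsilon cell genes, 5 lay higher without overlap and 1 lower, with a median of 0.28 (0.17 without Grg3 replicate 2). Rbp4, a retinol carrier that is also a liver gene, was the one called, at 59.2, 71.3 and 70.0 CPM in the controls and 123, 104 and 91.8 CPM in the libraries labelled Grg3 mutant, a rise of 0.67 (SE 0.14, edgeR adjusted p = 0.0478). Its call was lost without control replicate 2 or 3 (edgeR adjusted p = 0.146 and 0.171). Somatostatin, from Sst, stood at 237, 291 and 259 CPM in the controls and 428, 491 and 328 CPM in the libraries labelled Grg3 mutant, without overlap (edgeR adjusted p = 0.146). Of 13 alpha cell genes and 21 endocrine progenitor genes 0 were called, with medians of 0.02 (-0.11 without control replicate 1 and 0.16 without control replicate 2) and 0.11 (0.01 without Grg3 replicate 2 and 0.20 without Grg3 replicate 3). Neurog3, which triggers the endocrine fate in progenitors, stood at 15.3, 23.1 and 19.3 CPM in the controls and 32.2, 35.6 and 34.8 CPM in the libraries labelled Grg3 mutant. All 3 mutant-labelled libraries lay above all controls, but with 0.83 the gene stayed short of the threshold (edgeR adjusted p = 0.0917). Its target Neurod1 lay lower without overlap, at 15.9, 16.1 and 15 CPM in the controls and 11.4, 12.2 and 9.26 CPM in the libraries labelled Grg3 mutant (edgeR adjusted p = 0.26). Among 34 duct genes Slc26a3, described above, was the only one called, and the median was 0.01 (-0.03 without Grg3 replicate 3 and 0.02 without Grg3 replicate 1).

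Of the lists, the liver genes had the most rises. Of 29 hepatocyte genes tested, 14 were called higher and 0 lower, 21 lay higher without overlap, and the median was 5.13. Alb, serum albumin, stood at 5.47, 2.37 and 2.49 CPM in the controls and 636, 37.9 and 219.9 CPM in the libraries labelled Grg3 mutant, a rise of 6.43 (edgeR adjusted p = 0.0191). Afp, the fetal albumin relative, stood at 2.57, 0.943 and 1.39 CPM in the controls and 208, 12.3 and 75.4 CPM in the libraries labelled Grg3 mutant, a rise of 5.91 (SE 0.97, edgeR adjusted p = 0.0252). The apolipoprotein Apoa1 stood at 0.898, 0.0838 and 0.308 CPM in the controls and 118, 7.3 and 26.4 CPM in the libraries labelled Grg3 mutant, a rise of 6.86 (SE 1.16, edgeR adjusted p = 0.0262). In these genes Grg3 replicate 1 was the highest and replicate 2 the lowest of its group, and the 2 differed by more than 10-fold. Of the 14 calls, 1 was kept without control replicate 2, 1 without control replicate 3, 3 without control replicate 1 and 7 without Grg3 replicate 1.

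One liver gene had a different pattern. Serpina1c, of the alpha-1 antitrypsin family, stood at 0.71, 0.482 and 0.264 CPM in the controls and 7.64, 5.33 and 4.74 CPM in the libraries labelled Grg3 mutant, a rise of 3.60 (SE 0.38, edgeR adjusted p = 0.00271), and kept its call in all 20 alternatives. The spread among the mutant-labelled libraries was under 2-fold, against more than 10-fold for Alb. Its near-identical copies Serpina1a and Serpina1b had changes of 3.21 and 2.19 that did not pass (edgeR adjusted p = 0.0694 and 0.0928), and Serpina1e rose by 5.38 (SE 0.82, edgeR adjusted p = 0.0179). The call of Serpina1e was lost without any one of the controls (edgeR adjusted p = 0.052, 0.098 and 0.129), and it stood at 0.772, 1.01 and 0.418 CPM in the controls and 65.1, 7.41 and 19.8 CPM in the libraries labelled Grg3 mutant. Reads could be split between these copies, so their single values are uncertain. The liver genes Ambp and Vtn, which the control pancreas held at 172, 173 and 157 and at 159.7, 172 and 124 CPM, had changes of -0.09 and 0.93, and neither passed (edgeR adjusted p = 0.808 and 0.109).

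Summed markers of some neighbouring tissues lay higher in the libraries labelled Grg3 mutant. The 6 hepatocyte markers (Alb, Afp, Apoa1, Apoh, Fga and Serpina1a) summed to 9.74, 4.84 and 4.42 CPM in the controls and 1092, 64.3 and 357 CPM in the libraries labelled Grg3 mutant, and none of the 6 was at 0 in all libraries of a group. The 4 smooth muscle markers (Myh11, Acta2, Actg2 and Des) summed to 179, 139 and 124 against 299.6, 912 and 374 CPM. The 5 markers of cardiac and skeletal muscle summed to 1.29, 1.26 and 1.54 against 22.9, 3.18 and 20.5 CPM, and the 3 red blood cell markers to 715, 754 and 699.7 against 1475, 1184 and 840.2 CPM. In each of these sums every mutant-labelled library lay above every control. This did not hold for each marker: the red cell markers Hbb-bt and Alas2 and the muscle markers Acta1 and Ttn overlapped between the groups. Hbb-bt stood at 250, 188 and 187 CPM in the controls and 350, 266 and 189 CPM in the libraries labelled Grg3 mutant. Of 23 red cell genes tested, 1 lay without overlap (4.35%, beside 24.6% of all genes). The fat markers Adipoq and Plin1 had at most 1 count in each of the 6 libraries. The spleen markers summed to 10.6, 7.83 and 11.7 against 6.82, 4.42 and 7.5 CPM, lower mainly through Cd3e, a T cell gene, at 6.3, 3.41 and 4.2 CPM in the controls and 0.0914, 0.521 and 3.22 CPM in the libraries labelled Grg3 mutant, and kidney and adrenal markers were not higher. The 7 pancreas markers (Pdx1, Ptf1a, Cpa1, Cela1, Ins2, Gcg and Krt19) summed to 32634, 34805 and 30318 against 24200.3, 15378 and 27980.1 CPM. The order of the libraries differed between tissues: hepatocyte markers were highest in Grg3 replicate 1 and smooth muscle markers in replicate 2. The part of tissue carried along at dissection in the gene changes was not tested.

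Smooth muscle genes as a list lay higher without passing the gene test. Of 21 tested, 0 were called, 15 lay higher without overlap, and the median was 1.13. Myh11, the smooth muscle myosin, stood at 21.5, 18.7 and 18.3 CPM in the controls and 58.8, 204 and 66.6 CPM in the libraries labelled Grg3 mutant, and the enteric actin Actg2 at 6.35, 4.8 and 3.43 CPM in the controls and 28.3, 138 and 56.5 CPM in the libraries labelled Grg3 mutant (edgeR adjusted p = 0.0804 and 0.062). Without Grg3 replicate 2 the median of the list was 0.68. Of 35 mesenchyme genes, Fbln1, a matrix protein, was the only one called, a rise of 0.50 (SE 0.09, edgeR adjusted p = 0.035). Endothelium (29 genes), mesothelium (14), neural and Schwann cells (32), red cells (23), lymphoid cells (19) and fat (10) had 0 calls, with medians of 0.09 (-0.06 without Grg3 replicate 2 and 0.19 without Grg3 replicate 1), -0.13 (-0.25 without control replicate 3 and 0.06 without control replicate 2), 0.37 (0.16 without Grg3 replicate 2), 0.45 (-0.16 without Grg3 replicate 1 and 1.21 without control replicate 3), 1.01 (0.61 without control replicate 2) and 0.38. Of 33 macrophage and leukocyte genes the integrin Itgb2 was the only one called and it fell, by 0.92 (SE 0.17, edgeR adjusted p = 0.0322), while the median of that list was 0.54 (0.27 without control replicate 2). Both calls were lost without control replicate 2 or 3, with edgeR adjusted p = 0.138 and 0.163 for Fbln1 and edgeR adjusted p = 0.141 and 0.157 for Itgb2.

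**Figure D3:**
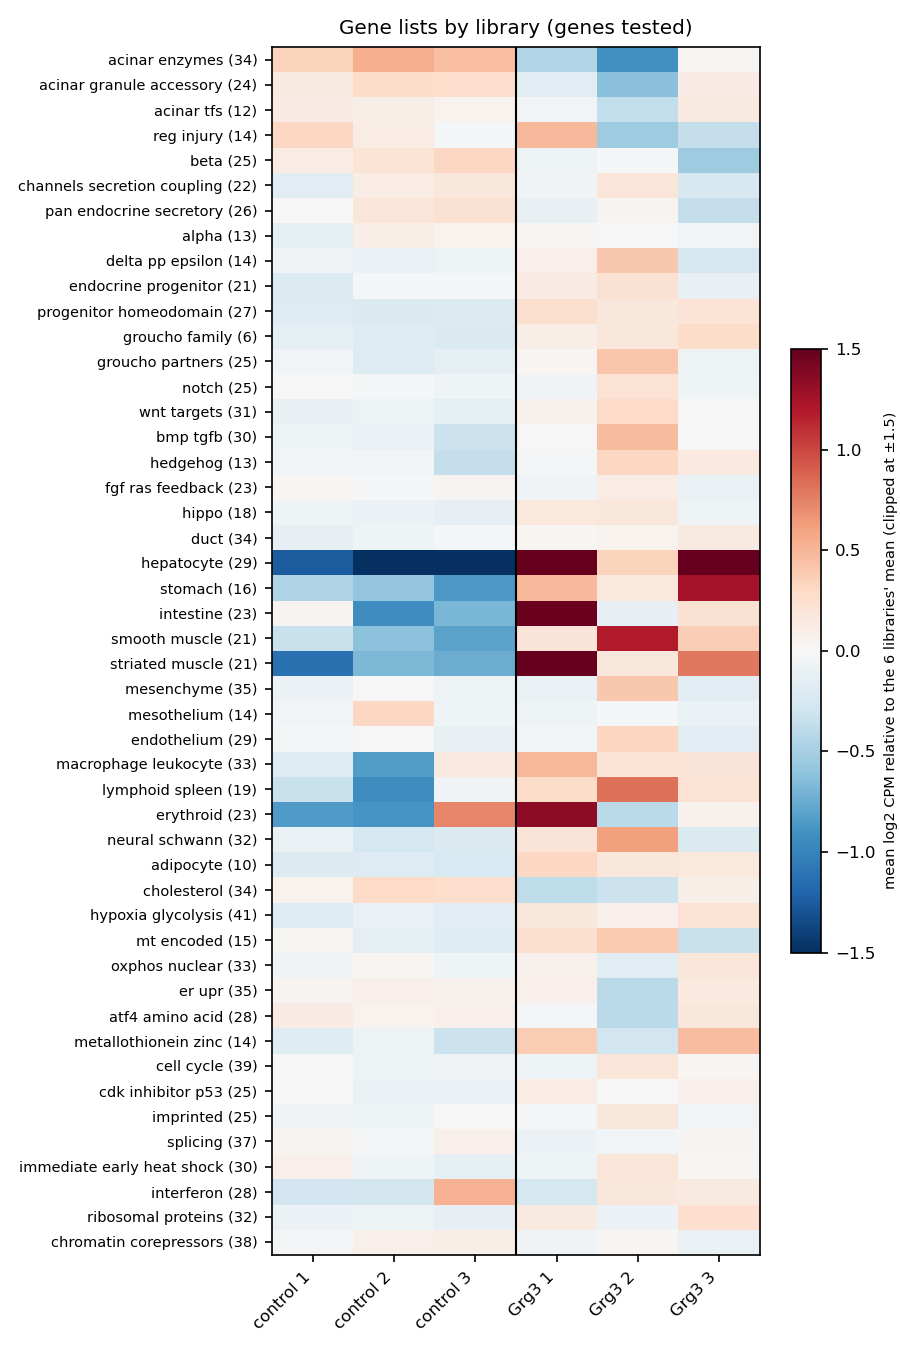
Mean log2 CPM of the tested members of 48 gene lists (rows, number of genes in brackets) in the 6 libraries (columns, controls left of the line), relative to the mean of the 6 libraries, red higher and blue lower, with colour limited at 1.5. The hepatocyte row is low in all 3 controls and highest in Grg3 replicates 1 and 3, smooth muscle is highest in Grg3 replicate 2, and the acinar enzyme row is lowest in Grg3 replicate 2.

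The metallothioneins, small proteins that bind zinc and copper, rose together. Mt1 (chromosome 8, 94179082 to 94180327) stood at 156, 195 and 87.3 CPM in the controls and 817, 290.1 and 1432 CPM in the libraries labelled Grg3 mutant, a rise of 2.53 (SE 0.49, edgeR adjusted p = 0.04). Mt2 (chromosome 8, 94172664 to 94173568) stood at 2.19, 1.76 and 0.594 CPM in the controls and 29.7, 5.3 and 47.4 CPM in the libraries labelled Grg3 mutant, a rise of 4.17 (SE 0.73, edgeR adjusted p = 0.0311). Mt3 rose by 1.55 (SE 0.31, edgeR adjusted p = 0.046). In all 3 the groups did not overlap, and in each Grg3 replicate 2 was the lowest and replicate 3 the highest of its group. No call of the 3 was kept without control replicate 1, 2 or 3, without Grg3 replicate 1 or 3, or without Grg3Grg4 replicate 1. The other 11 genes of the list, zinc transporters and the metal-sensing factor Mtf1, had 0 calls. Of all 14 genes tested in the list, 3 lay higher and 6 lower without overlap. The median was -0.17 (-0.11 without Grg3 replicate 3). The zinc importer Slc39a14, which liver and pancreas use in inflammation, had a change of -0.40 without overlap (edgeR adjusted p = 0.207).

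Mt1 and Mt2 lie side by side on chromosome 8 and moved together, and their RefSeq promoters are shown for the letters to which the metal-sensing factor Mtf1 binds (chr8:94178839-94179138, plus strand, and chr8:94172368-94172667, plus strand). Capitals mark TGCACNC or TGCGCNC, the core of the metal response element, on either strand. These letters were chosen after the rise had been seen.
Mt1: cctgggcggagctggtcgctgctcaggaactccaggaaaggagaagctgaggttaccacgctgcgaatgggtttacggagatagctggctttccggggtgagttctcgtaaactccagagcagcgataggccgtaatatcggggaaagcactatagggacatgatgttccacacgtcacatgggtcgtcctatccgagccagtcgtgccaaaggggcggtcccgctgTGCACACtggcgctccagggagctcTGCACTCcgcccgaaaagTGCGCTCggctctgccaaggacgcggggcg
Mt2: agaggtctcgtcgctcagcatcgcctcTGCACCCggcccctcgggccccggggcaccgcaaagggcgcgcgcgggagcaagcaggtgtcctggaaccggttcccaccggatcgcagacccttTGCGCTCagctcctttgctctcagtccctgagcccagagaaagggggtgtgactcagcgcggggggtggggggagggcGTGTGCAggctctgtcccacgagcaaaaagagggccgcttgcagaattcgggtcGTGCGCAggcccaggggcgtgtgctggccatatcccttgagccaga
The Mt1 window holds 3 matches and the Mt2 window 4. The letters are short, and 35% of the promoters of all genes tested hold at least 1 match.

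Signalling targets changed in single members. Of 30 BMP and TGF-beta genes 2 were higher and 1 lower, 11 lay higher without overlap, and the median of 0.23 was 0.05 without Grg3 replicate 2. The ligand Bmp2 stood at 2.4, 2.09 and 1.45 CPM in the controls and 5.32, 6.21 and 4.95 CPM in the libraries labelled Grg3 mutant, a rise of 1.47 (SE 0.26, edgeR adjusted p = 0.0317). Id1, an immediate BMP target that blocks basic helix-loop-helix factors, stood at 23.5, 29 and 22 CPM in the controls and 42.2, 44.7 and 38.6 CPM in the libraries labelled Grg3 mutant, a rise of 0.75 (SE 0.14, edgeR adjusted p = 0.0324). The related targets Id3 and Id4 lay higher without overlap, with changes of 0.56 and 0.77 that did not pass (edgeR adjusted p = 0.138 and 0.186). Skil, an inhibitor of Smad signalling, fell by 0.42 (SE 0.08, edgeR adjusted p = 0.0311). None of the 3 calls was kept without control replicate 2, control replicate 3 or Grg3 replicate 1.

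Etv5, an ETS factor induced by FGF signalling in epithelial tips, stood at 46.4, 38.9 and 50.6 CPM in the controls and 23.1, 24.7 and 24.3 CPM in the libraries labelled Grg3 mutant, a fall of 0.91 (SE 0.11, edgeR adjusted p = 0.00638). It was the only gene called of 23 FGF and Ras feedback genes, whose median was -0.11 (-0.04 without Grg3 replicate 1). Its mutant-labelled libraries agreed closely, and the call was lost only with the female libraries alone (edgeR adjusted p = 0.114). Of 18 Hippo pathway genes, Ankrd1, a target of Yap, rose from 0.23, 0.251 and 0.242 to 2.87, 1.8 and 1.28 CPM, a rise of 3.03 (SE 0.53, edgeR adjusted p = 0.0311). The kinase Lats1, which holds Yap in check, fell by 0.49 (SE 0.09, edgeR adjusted p = 0.0391). No call of these 2 was kept without any one of the controls or without Grg3 replicate 1. Of 25 Notch genes, 31 Wnt targets and 13 Hedgehog genes 0 were called, with medians of 0.03 (-0.11 without Grg3 replicate 2 and 0.08 without Grg3 replicate 3), 0.23 (0.12 without Grg3 replicate 2) and -0.01 (-0.17 without Grg3 replicate 2 and 0.19 without Grg3 replicate 1).

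Some genes of glucose use rose. Of 41 hypoxia and glycolysis genes 3 were called higher and 0 lower, 21 lay higher without overlap and 0 lower, and the median was 0.35. The glucose transporter Slc2a1 stood at 52.6, 49.4 and 54.7 CPM in the controls and 96, 80.2 and 77.7 CPM in the libraries labelled Grg3 mutant, a rise of 0.70 (SE 0.13, edgeR adjusted p = 0.0342). The phosphofructokinase Pfkl and the collagen prolyl hydroxylase P4ha1 rose by 0.52 (SE 0.10, edgeR adjusted p = 0.041) and 0.37 (SE 0.06, edgeR adjusted p = 0.028). Of the 41 genes 35 lay above 0 and 6 below. Vegfa and Ndrg1, hypoxia targets that are not glycolytic enzymes, were among the 6, with changes of -0.11 and -0.15 and overlapping groups. The called P4ha1 is not a glycolytic enzyme either. Hcar1, the receptor for lactate, is in none of the lists. It stood at 2.55, 2.45 and 2.66 CPM in the controls and 7.92, 9.06 and 8.15 CPM in the libraries labelled Grg3 mutant, a rise of 1.71 (SE 0.14, edgeR adjusted p = 0.000467) that was kept in all 20 alternatives.

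Some genes of lipid synthesis fell. Of 34 cholesterol and lipid genes 3 were called lower and 0 higher, 11 lay lower without overlap and 0 higher, and the median was -0.33. The fatty acid synthase Fasn stood at 248, 375 and 396 CPM in the controls and 163, 191 and 221 CPM in the libraries labelled Grg3 mutant, a fall of 0.83 (SE 0.17, edgeR adjusted p = 0.0493). The sterol reductase Tm7sf2 fell by 0.82 (SE 0.14, edgeR adjusted p = 0.0257). Insig1, a feedback regulator of sterol synthesis, stood at 644, 801 and 800.3 CPM in the controls and 300.4, 288 and 540.2 CPM in the libraries labelled Grg3 mutant and did not pass (edgeR adjusted p = 0.0662). Grg3 replicate 3 was the highest of its group for Insig1, and without it the median of the list was -0.53. Amino acid genes included 2 calls of 28, the mitochondrial folate enzyme Aldh1l2, which fell by 1.21 (SE 0.21, edgeR adjusted p = 0.0311), and the cationic amino acid transporter Slc7a1, which fell by 0.66 (SE 0.13, edgeR adjusted p = 0.04). The calls of the 3 glycolysis and hypoxia genes, the 3 lipid genes and the 2 amino acid genes were all lost without control replicate 2, control replicate 3 or Grg3 replicate 1.

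The remaining cell programmes had few calls. Of 30 immediate early and heat shock genes, the chaperone Hspa8 fell by 0.48 (SE 0.09, edgeR adjusted p = 0.04), a call lost without control replicate 2 or 3 (edgeR adjusted p = 0.175 and 0.171). Of 35 genes of the unfolded protein response 0 were called, with a median of -0.08 (-0.18 without Grg3 replicate 3 and 0.07 without Grg3 replicate 2). Cell cycle (39 genes), CDK inhibitor and p53 (25), imprinted (25), splicing (37), interferon (28), nuclear respiratory chain (33), mitochondrially encoded (15) and chromatin co-repressor genes (38) had 0 calls, with medians from -0.08 to 0.29. That of 0.29, of the mitochondrially encoded genes, was 0.04 without Grg3 replicate 2, and those of the others lay between -0.18 and 0.22 with any 1 library left out. The imprinted growth regulator H19 stood at 2809, 2788 and 2204 CPM in the controls and 4221, 3818 and 3881 CPM in the libraries labelled Grg3 mutant, without overlap (edgeR adjusted p = 0.0662). Of 32 ribosomal protein genes 0 were called, 30 lay above 0 and the median was 0.22. It was 0.11 with the trend by transcript length, described below, removed.

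Several of the sharpest differences lay in copied or little-known genes. The processed pseudogene Rps26-ps1 (chromosome 8, 107439131 to 107439579) stood at 95.7, 82.8 and 78 CPM in the controls and 7.15, 7.61 and 8.29 CPM in the libraries labelled Grg3 mutant, a fall of 3.48 (SE 0.11, edgeR adjusted p = 1.73e-07). Its parent Rps26 stood at 604, 572 and 489.7 CPM in the controls and 875, 743 and 829 CPM in the libraries labelled Grg3 mutant, a rise of 0.56 (SE 0.11, edgeR adjusted p = 0.049) whose call was lost in 15 of the 20 alternatives, with any one control left out among them (largest edgeR adjusted p = 0.288). Another ribosomal copy, Rpl34-ps1, fell by 1.88 (SE 0.17, edgeR adjusted p = 0.00101), and Gm8730, annotated as a processed pseudogene, rose from 19.5, 19.4 and 22.1 to 106, 166 and 117 CPM, 2.68 (SE 0.22, edgeR adjusted p = 0.00048). Reads of such copies and of their parents cannot be told apart with certainty, so these values are uncertain. In each of the 3 copies the groups lay more than 2-fold apart at their nearest libraries. Of 1506 pseudogenes tested 12 were called higher and 5 lower, or 1.13%.

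In 23 called genes one group had 9 counts or fewer over its 3 libraries, 16 of them higher and 7 lower. Ifi202b, an interferon-inducible gene, had 86, 67 and 88 counts in the controls and 0 in every library labelled Grg3 mutant, at least 101-fold lower against a floor of 3 counts over the group. This call was lost without control replicate 3 (edgeR adjusted p = 0.0628). Ifi202b also had 0 counts over the libraries labelled Pdx1:Cre;Grg3Grg4. Whether the mixed background of the embryos differed between the groups was not tested. Gm45643 had 397, 113 and 127 against 1, 0 and 2 counts, so that the controls were higher by a ratio of 266 (exact 95% interval 90.7 to 1294). In the other direction Gm12247, Gm32585 and Gdf2, the circulating BMP ligand BMP9, had 0 counts in all controls, and were at least 26.9-fold, 20.2-fold and 10.1-fold higher. Pax1, a paired box factor of the foregut pouches, had 23, 20 and 29 against 1, 5 and 3 counts. Gdf2 and Pax1 were chosen for mention after their values were seen, and their calls were lost without control replicate 2 or 3 (edgeR adjusted p = 0.141 and 0.153 for Gdf2, edgeR adjusted p = 0.126 and 0.157 for Pax1). In a pair of called genes the controls themselves were far apart. Gm8797 stood at 0.835, 37.9 and 33.5 CPM in the controls and 0.713, 0.494 and 0.628 CPM in the libraries labelled Grg3 mutant, and Stra6, a retinol transporter, at 6.7, 30.9 and 42 CPM in the controls and 5.23, 2.21 and 3.69 CPM in the libraries labelled Grg3 mutant, so that in both control replicate 1 lay near the mutant-labelled libraries and far below the other controls. Both calls were lost without control replicate 2 or 3, with edgeR adjusted p = 0.15 and 0.163 for Gm8797 and edgeR adjusted p = 0.165 and 0.194 for Stra6.

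**Figure D4:**
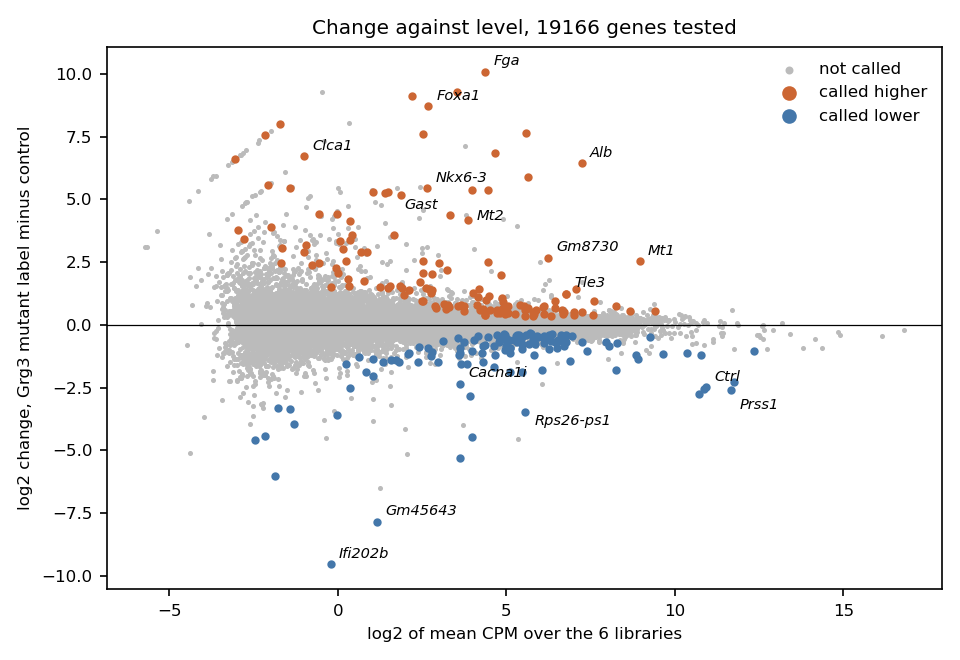
Log2 change (vertical axis) against log2 of the mean CPM over the 6 libraries (horizontal axis) for 19166 genes, orange called higher (135), blue called lower (133). Foxa1, Nkx6-3 and Gast stand out among rises and Rps26-ps1, Prss1 and Ctrl among falls.

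The calls lay on 20 chromosomes and were more frequent among abundant genes. Among these the share called ran from 0.668% on chromosome 13 to 2.28% on chromosome 14. On chromosome 6 there were 2 higher and 15 lower (1.73%), the trypsinogens among the latter. On chromosome 8 there were 10 higher and 10 lower (2.01%). Of the named genes, Gm45643, Mt3, Mt2, Mt1, Gm8730, Ctrl and Rps26-ps1 lay there between positions 90893155 and 107439579. Whether their nearness had a part in these changes was not tested. With the genes split into 4 equal groups by mean level, the share called was 0.647%, 1.25%, 1.46% and 2.23% from the lowest to the highest. Within 10 Mb of Tle3, 211 genes were tested and 2 were called, both lower: Dmxl2, a synaptic vesicle protein, by 0.79 (SE 0.16, edgeR adjusted p = 0.046), and Stra6, by 2.84 (SE 0.58, edgeR adjusted p = 0.049). The call of Dmxl2 was lost without control replicate 2 or 3 (edgeR adjusted p = 0.151 and 0.175). Within 1 Mb of Foxa1, 5 genes were tested and Ttc6, a neighbour named here after its values were seen, was the only one called, at 0.188, 0.105 and 0.264 CPM in the controls and 1.55, 1.81 and 2.37 CPM in the libraries labelled Grg3 mutant, a rise of 3.35 (SE 0.41, edgeR adjusted p = 0.00687). Whether the counting used strand is not stated in the sources used here, so reads of overlapping neighbours cannot be told apart.

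Changes were related to transcript length. The median exon length was 2.48 kb for genes called higher and 5.69 kb for genes called lower, against 3.71 kb for all genes tested. With the genes split into 4 equal groups by exon length, 53 were higher and 35 lower in the shortest group, 49 and 12 in the next, 15 and 26 in the one after, and 18 and 60 in the longest. In the longest group the median log2 level, relative to the 6 libraries, was 0.00, 0.05 and 0.10 in the controls and -0.06, -0.01 and -0.07 in the libraries labelled Grg3 mutant. With the length trend of each library removed, 190 genes were called, 173 of them among the 268, and the fall of Prss1 and the rises of Gast, Foxa1 and Nkx6-3 were still called (edgeR adjusted p = 0.0014, 1.66e-05, 1.28e-07 and 0.000136). Some list medians moved as well: that of the delta, PP and epsilon genes went from 0.28 to 0.15. The median of the mitochondrially encoded genes went from 0.29 to 0.17, and that of the acinar enzymes from -0.51 to -0.61. RNA quality values were not used here, and their part in this trend was not tested.

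**Figure D5:**
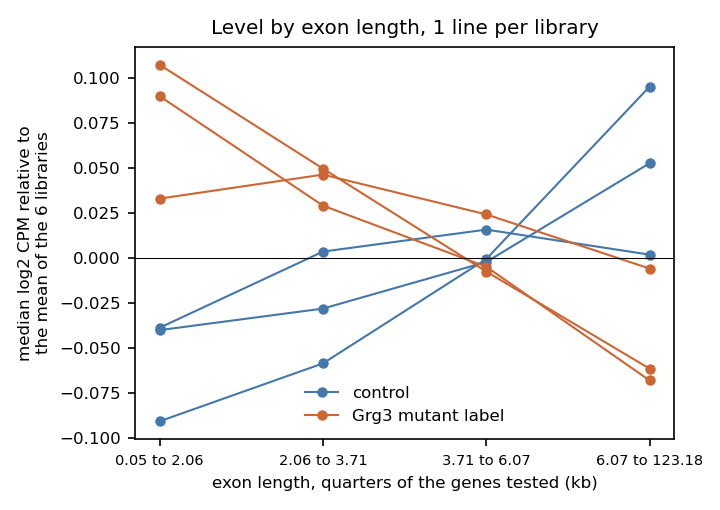
Median log2 CPM relative to the mean of the 6 libraries (vertical axis) of the genes tested, split into 4 equal groups by exon length in kb (horizontal axis), 1 line per library (blue, control; orange, labelled Grg3 mutant). The lines cross: the mutant-labelled libraries lie above the controls for the shortest genes and below them for the longest.

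Among promoters, RefSeq windows were found for 67.5% of the genes tested and 71.3% of those called, so the shares describe those genes only. A forkhead match was present in 8 of 99 promoters of genes called higher (8.08%), 2 of 92 of genes called lower (2.17%) and 4.38% of all. The letters GTTAAT, part of the Hnf1 site, which liver genes often carry, were present in 11.1% of genes called higher, 3.26% of genes called lower and 4.55% of all. E-box shares were 25.3%, 29.3% and 18.8% in the same order, and TC-box shares 7.07%, 6.52% and 7.7%. For the metal response letters the shares were 36.4%, 42.4% and 35%. A match says only that the letters are in the window.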

How the data were processed

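Each library came as a deposited table of raw read counts by gene symbol, whole numbers that the authors had not normalized. The submitters' processing notes list the build mm10 (GRCm38) and the tools HISAT2, HTSeq, Trim Galore, FastQC, DESeq2 and bedtools. Tool versions, annotation and strandedness of the counting were not stated there. In the 6 libraries the 5 rows that name no gene held 28.5% to 32.4% of the reads and were left out, and since they include reads aligned to several places, genes with near-identical copies can lose reads. Positions are from GENCODE M21 on GRCm38, and promoters from RefSeq on GRCm38.p6.

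Counts were tested with the 2-sided quasi-likelihood F test of edgeR 4.0.16 (R 4.3.3, Python 3.11.15) after TMM scaling and filterByExpr (minimum count 10, minimum total 15). All 9 libraries shared 1 fit, and p-values were Benjamini-Hochberg adjusted over 19166 genes, with a threshold of 0.05. The SE is the size of the log2 change divided by the square root of F. The groups come from the titles, and p-values measure the spread between embryos. Libraries of a group differed beyond counting noise. Genes with 9 counts or fewer over a group are given as ratios of counts with exact 95% intervals, and 0 was set to a floor of 3 counts, both for counting error only.

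The members and the gene lists were chosen with earlier results of these data known, so lists are described by counts and medians, with no test. Named genes are Tle3, Tle4, the 15 largest rises and the 15 largest falls that were called (at least 5 CPM, no overlap), the 10 of highest level and the 10 of smallest p, up to 4 called members of each list (2 abundant ones where none was called), called genes within 10 Mb of Tle3, and 8 genes with few counts in a group. Members of the lists outside this rule, the ratios between enzymes and Ttc6 were chosen after their values were seen, and some genes are not reported here. Tested on simulated data for this comparison with 18308 genes, the fit recovered 70 of 100 genes changed 2-fold and 95 of 100 changed 4-fold, and called 13 unchanged genes. Genes of low level in the controls were not among those changed. Each gene was simulated on its own, without differences in tissue content between libraries, so these rates do not cover either case. Alternatives used DESeq2 1.42.0 and limma 3.58.1, other filters and scalings, a replicate block, sex, and libraries left out. The removal of the length trend was chosen after seeing the data.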

Additional observations from a re-analysis of the deposited data

How the results depend on the processing

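None of the 74 called genes chosen by the rule for named genes changed direction under the alternatives run. Some named genes that were not called did, such as Rbpjl, whose change ran from -0.21 to 0.22. The medians of 15 of the 48 lists described changed sign under at least 1 of them. That of the red cell genes, 0.45, was -0.16 without Grg3 replicate 1 and -0.29 with the female libraries only. The 268 called genes (135 higher, 133 lower) became 586 (309, 277) with no filter beyond 1 count, 169 (81, 88) with sex as a term, 29 (16, 13) with the 4 female libraries only, 1463 (699, 764) by the Wald test of DESeq2 and 421 (206, 215) by limma voom. With the replicate number as a block they became 167 (85, 82). The labels do not say that the numbers pair embryos, and the deviations of same-numbered libraries correlated at 0.094, 0.044 and 0.003, so the numbers were not taken to pair them. With each library left out in turn the count ran from 32 to 327, from 15 to 178 higher and from 17 to 172 lower, lowest without control replicate 3. Without control replicate 1, 25.9% of the called genes were higher. The cause of these shifts was not tested. Counts stayed within 1.5 times with the size factors of DESeq2 (266), without the acinar enzymes (238), at 1 CPM or more in 3 libraries (300), with 6 libraries only (255) and with the length trend removed (190). With 6 libraries only, 18233 genes were tested and 188 of the 268 genes were called again. No alternative moved the median of all genes by over 0.1. With 3 libraries a group, simulated 2-fold changes were missed in 30 of 100 genes, a set without genes of low level in the controls. Levels under 10 counts a group are limited by counting error.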
